A study of Homo sapiens with 6 samples.

Results

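Transcripts of the AP-2 transcription factors and of proteins that act with them were measured at every array probe annotated to 8 genes, TFAP2A, TFAP2B, TFAP2C, TFAP2E, CITED2, CITED4, KCTD1 and KCTD15, out of 20045 genes annotated on the array. The genes were chosen by symbol, and each of their 15 probes was read on its own. The cells were PEO4, a cell line derived from high-grade serous carcinoma of the ovary. They carried a control shRNA (nonspecific, NS) or, in the knockdown groups, SHMT1 shRNA F11 or SHMT1 shRNA F12, delivered by lentivirus with puromycin selection. RNA was hybridized to 6 Illumina HumanHT-12 V4.0 arrays, 2 per group, and values are quantile-normalized intensities on a linear scale. All groups were grown in the same medium and differed by the shRNA. The methods of the study speak of biological replicates, but in a number that is not that of the arrays per group, and the labels do not say whether the arrays came from separate cultures. Hence p-values measure the spread between these arrays, which may be technical, and all values come from 1 line. In bulk RNA, fewer cells expressing a gene and less RNA per cell cannot be told apart.

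AP-2 factors bind GC-rich palindromes in promoters and enhancers as dimers of family members. AP-2α (TFAP2A) and AP-2γ (TFAP2C) act in neural crest, epidermis and trophoblast and control receptor genes such as ERBB2 and ESR1 in breast carcinoma. CITED2 and CITED4 are coactivators that bring the histone acetyltransferases p300 and CBP to AP-2 factors, whereas KCTD1 and KCTD15 are BTB-domain proteins that inhibit AP-2 activity.

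TFAP2A was lower with each SHMT1 shRNA at 2 of its probes, and TFAP2C was higher with F12 at 1 of its 2 probes. For TFAP2A this direction is opposite to the one given in the text of the study. CITED2, CITED4, KCTD1 and KCTD15 did not pass the test in any comparison. TFAP2B and TFAP2E were not tested because their probes were at or near background.

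The promoters of TFAP2A are shown because its transcript carries the main difference, and that of MT2A because it is a classical AP-2 target and one of the list genes that changed. Each sequence is the 250 bases upstream of a start site in RefSeq (GRCh38.p14), 5′ to 3′ on the strand of the gene. Capitals mark the AP-2 palindromes GCCNNNGGC or GCCNNNNGGC, searched on both strands, and TATAAA, searched on the strand of the gene.
TFAP2A promoter 1, chr6:10419660-10419909, minus strand: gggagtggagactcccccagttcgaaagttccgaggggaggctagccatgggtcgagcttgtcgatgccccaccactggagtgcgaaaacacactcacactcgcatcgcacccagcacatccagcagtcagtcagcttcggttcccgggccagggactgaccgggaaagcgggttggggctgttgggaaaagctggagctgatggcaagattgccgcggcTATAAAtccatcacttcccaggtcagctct
TFAP2A promoter 2, chr6:10412392-10412641, minus strand: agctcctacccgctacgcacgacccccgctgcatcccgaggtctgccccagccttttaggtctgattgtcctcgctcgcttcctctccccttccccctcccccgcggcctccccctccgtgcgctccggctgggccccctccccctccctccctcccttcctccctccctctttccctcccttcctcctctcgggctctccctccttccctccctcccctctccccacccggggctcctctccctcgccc
MT2A promoter, chr16:56608334-56608583, plus strand: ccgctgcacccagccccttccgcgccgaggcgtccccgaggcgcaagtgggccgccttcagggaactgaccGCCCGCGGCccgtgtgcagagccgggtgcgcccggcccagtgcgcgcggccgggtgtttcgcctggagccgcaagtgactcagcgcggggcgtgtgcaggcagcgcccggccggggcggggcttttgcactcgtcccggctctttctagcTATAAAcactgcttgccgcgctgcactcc
The first TFAP2A window held TATAAA starting 30 bases before the start site and no palindrome, and the second held neither. The MT2A window held a palindrome at position -179 and TATAAA at -29. Counts over all windows and by gene used RefSeq windows of 300 bases, which extend the 250 bases past the start site. Among 35116 such windows, 23.2% held GCCNNNGGC, 21.4% held GCCNNNNGGC and 36.7% held either, and TATAAA was in 7.33% on the strand of the gene. Of the 8 genes, 6 had windows (TFAP2C and KCTD15 had none), and 4 of the 12 windows held a palindrome, 1 of CITED2, 1 of CITED4 and 2 of KCTD1. A match describes the letters and does not show binding.

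SHMT1, the targeted gene, encodes cytosolic serine hydroxymethyltransferase. Its brightest probe read 542 and 544 with NS, 291 and 342 with F11, and 434 and 442 with F12, which is 58.3% and 80.6% of the NS mean. The difference passed with F11 (log2 difference -0.78, adjusted p = 0.00535 by limma, and 0.0544 or 0.0586 without NS replicate 1 or 2) and not with F12 (-0.31, adjusted p = 0.213). The other SHMT1 probes gave -0.28 (adjusted p = 0.0712) and -0.04 (adjusted p = 0.889) with F11. With F12 they gave -0.04 (adjusted p = 0.885) and -0.04 (adjusted p = 0.908), so no SHMT1 probe passed with F12. Markers of Mullerian and serous epithelium were above background on all 6 arrays for 8 of 8 genes, including PAX8 and WT1. Of fibroblast and endothelial markers, 0 of 5 and 0 of 4 were above background on all arrays. Of leukocyte markers this held for CD14 and CD68, whereas PTPRC and CD3E were below it, and the summed leukocyte level was 678 to 787 with NS, 712 to 816 with F11 and 600 to 625 with F12.

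A probe was tested where at least 2 of the 6 arrays had an intensity above 91.6, a threshold set from the dim end of the distribution (95th percentile of background). This held for 23011 of 47321 probes and for 11 of the 15 AP-2 probes, which cover 6 of the 8 genes. Tests were limma fits over all 23011 probes with Benjamini-Hochberg adjustment, and a probe passed at an adjusted p under 0.05. Probes of different genes differ in brightness for technical reasons, so their levels were not ranked against each other.

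**Figure D1:**
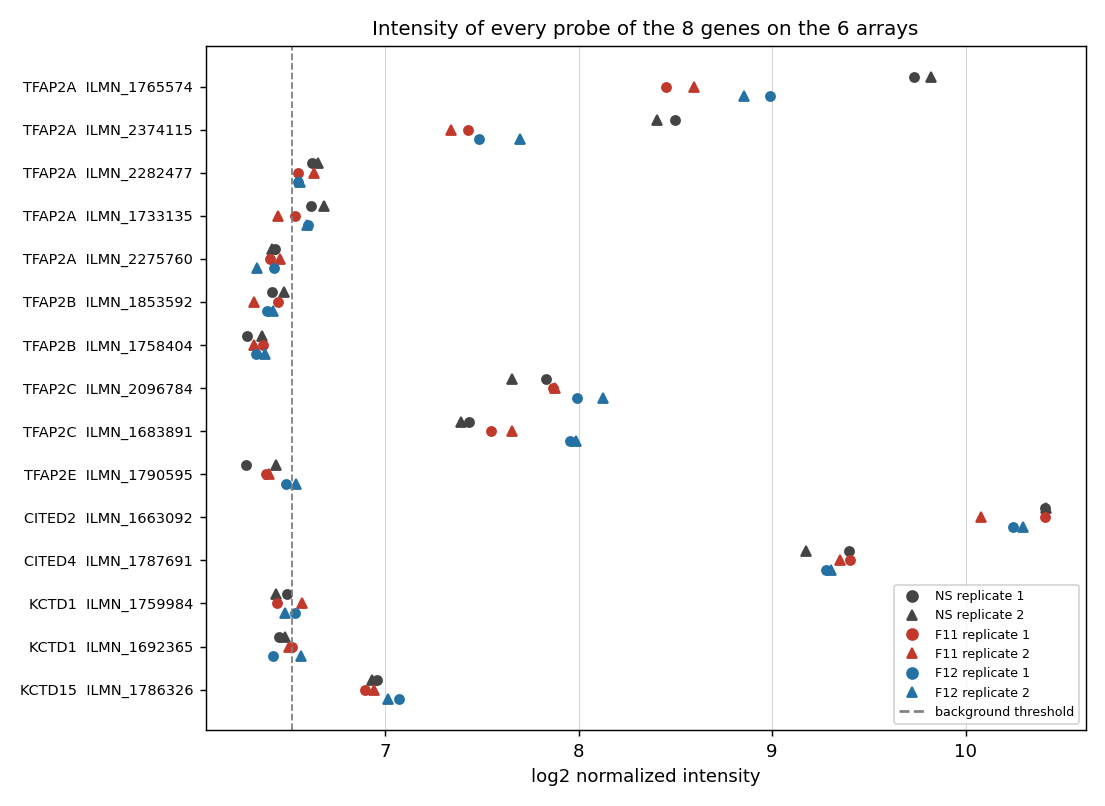
Log2 normalized intensity (horizontal axis) of the 15 probes of the 8 genes on the 6 arrays, with color for the shRNA, marker shape for the replicate and a dashed line at the background threshold of 91.6. The NS arrays stand to the right of the 4 SHMT1 shRNA arrays at TFAP2A probes ILMN_1765574 and ILMN_2374115, and the TFAP2B probes lie left of the dashed line.

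TFAP2A had 5 probes, annotated to 3 transcripts. Probe ILMN_1765574 (NM_001042425) read 851 and 904 in NS replicates 1 and 2, 350 and 388 with F11, and 508 and 463 with F12. Each SHMT1 shRNA array was below both NS arrays, and the F11 mean was the lowest. The means were 878 ± 37.2 with NS, 369 ± 26.6 with F11 and 485 ± 31.8 with F12 (SD, n = 2 each), so that 42.0% of the NS intensity was left with F11 and 55.3% with F12. The log2 difference from NS was -1.25 with F11 (95% interval -1.43 to -1.07, adjusted p = 0.000964 by limma), a 2.38-fold decrease. With F12 it was -0.86 (interval -1.04 to -0.67, adjusted p = 0.00847), a 1.81-fold decrease. The F11 difference passed without each array in turn (adjusted p from 0.000808 to 0.0202). The F12 difference did not pass without either NS array (adjusted p = 0.0904 without replicate 1 and 0.0922 without replicate 2) or either F12 array (0.134 and 0.150), with log2 differences of -0.79 to -0.92.

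Probe ILMN_2374115 (NM_001032280) read 362 and 339 with NS, 172 and 162 with F11, and 179 and 207 with F12. Again each SHMT1 shRNA array was below both NS arrays, with means of 351 ± 16.2 for NS, 167 ± 7.15 for F11 and 193 ± 20.1 for F12 (SD, n = 2 each). These were 47.7% and 55.1% of the NS intensity. The log2 difference was -1.07 with F11 (interval -1.26 to -0.87, adjusted p = 0.00238 by limma) and -0.86 with F12 (interval -1.06 to -0.67, adjusted p = 0.00927). The F11 difference passed without each array in turn (adjusted p from 0.0028 to 0.0287). The F12 difference did not pass without either NS array (adjusted p = 0.126 without replicate 1 and 0.0922 without replicate 2) or either F12 array (0.146 and 0.0766).

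The log2 ratio of these probes within an array was 1.23 and 1.41 with NS, 1.02 and 1.26 with F11, and 1.5 and 1.16 with F12. The ranges overlapped between the groups, and the mean changed by -0.09 between NS and the SHMT1 shRNA arrays (exact permutation test over arrays, two-sided, p = 0.667). Across the 6 arrays the Pearson correlation of their log2 intensities was 0.956, given as a description of arrays that share 3 groups.

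The other 3 TFAP2A probes were close to background. ILMN_2282477 (NM_003220) read 98.7 and 101 with NS, 93.6 and 99.2 with F11, and 93.7 and 94.4 with F12. ILMN_1733135, annotated to the same transcript, read 98.2 and 103 with NS, 92.8 and 87.3 with F11, and 97.2 and 96.9 with F12. At the second of these each SHMT1 shRNA array was below both NS arrays, whereas at the first an F11 array fell within the NS range. The log2 differences of ILMN_2282477 were -0.05 for F11 (adjusted p = 0.783) and -0.08 for F12 (0.654). Those of ILMN_1733135 were -0.16 for F11 (adjusted p = 0.268) and -0.05 for F12 (0.826). ILMN_2275760, annotated to NM_001032280 like the second bright probe, read 81.0 to 87.8 and exceeded the threshold on 0 arrays. Thus 2 of the 5 probes carried the decrease, and probes of 1 annotated transcript differed in whether they gave a signal. The positions of the probes on the transcripts were not analysed here.

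TFAP2C, which encodes AP-2γ, had 2 probes. ILMN_2096784 read 227 and 202 with NS, 233 and 235 with F11, and 254 and 280 with F12. ILMN_1683891 read 173 and 168 with NS, 187 and 202 with F11, and 248 and 253 with F12. At both probes the group means rose in the order NS, F11, F12. The means at ILMN_1683891 were 170 ± 3.68, 194 ± 10.6 and 251 ± 3.75 (SD, n = 2 each), and the log2 difference was 0.56 with F12 (interval 0.41 to 0.70, adjusted p = 0.0144 by limma) and 0.19 with F11 (interval 0.04 to 0.34, adjusted p = 0.197). At ILMN_2096784 the values were 0.31 with F12 (interval 0.13 to 0.50, adjusted p = 0.198) and 0.13 with F11 (interval -0.05 to 0.31, adjusted p = 0.527). The rise with F12 at ILMN_1683891 did not pass without either NS array (adjusted p = 0.140 without replicate 1 and 0.142 without replicate 2) or either F12 array (0.207 and 0.217).

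TFAP2B, which is known from kidney and limb development, had 2 probes at 80.1 to 89.0 and 78.1 to 83.2, and neither exceeded the background threshold on any array. TFAP2E, described in the mouse olfactory bulb, had 1 probe at 77.7 to 93.1, above the threshold on 1 array, F12 replicate 2. No fold was computed for these genes. TFAP2D, the remaining AP-2 gene, read 82.4 to 87.2, and CITED1, the remaining member of the coactivator family measured, read 78.5 to 89.1. Both were above the threshold on 0 arrays. AP-2 signal in these arrays therefore came from TFAP2A and TFAP2C probes.

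CITED2 read 1363 and 1364 with NS, 1362 and 1084 with F11, and 1213 and 1256 with F12. The NS arrays were nearly equal, F11 replicate 1 lay just below them, and the F11 arrays spread around both F12 arrays. The log2 difference was -0.17 with F11 (interval -0.41 to 0.07, adjusted p = 0.532) and -0.14 with F12 (interval -0.38 to 0.10, adjusted p = 0.674). Without F11 replicate 2 the F11 difference was -0.0014 (adjusted p = 0.997) and without F11 replicate 1 it was -0.33 (adjusted p = 0.0543), so 1 array set its size. CITED4 read 673 and 577 with NS, 677 and 652 with F11, and 621 and 633 with F12. Both F12 arrays lay within the NS range. Its log2 difference was 0.09 with F11 (interval -0.10 to 0.28) and 0.01 with F12 (interval -0.18 to 0.20).

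KCTD15 read 124 and 122 with NS, 119 and 123 with F11, and 134 and 129 with F12. The F12 arrays were the highest, and the log2 difference was 0.10 with F12 (interval -0.04 to 0.23, adjusted p = 0.597) and -0.03 with F11 (interval -0.16 to 0.11, adjusted p = 0.899). KCTD1 was near background at both probes, at 86.5 to 95 and 85.7 to 94.8, each above the threshold on 2 of the 6 arrays. Its log2 differences from NS lay between 0.03 and 0.05. The intervals of the coactivators and inhibitors against NS all held 0, and the widest reached from -0.41 to 0.07.

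**Figure D2:**
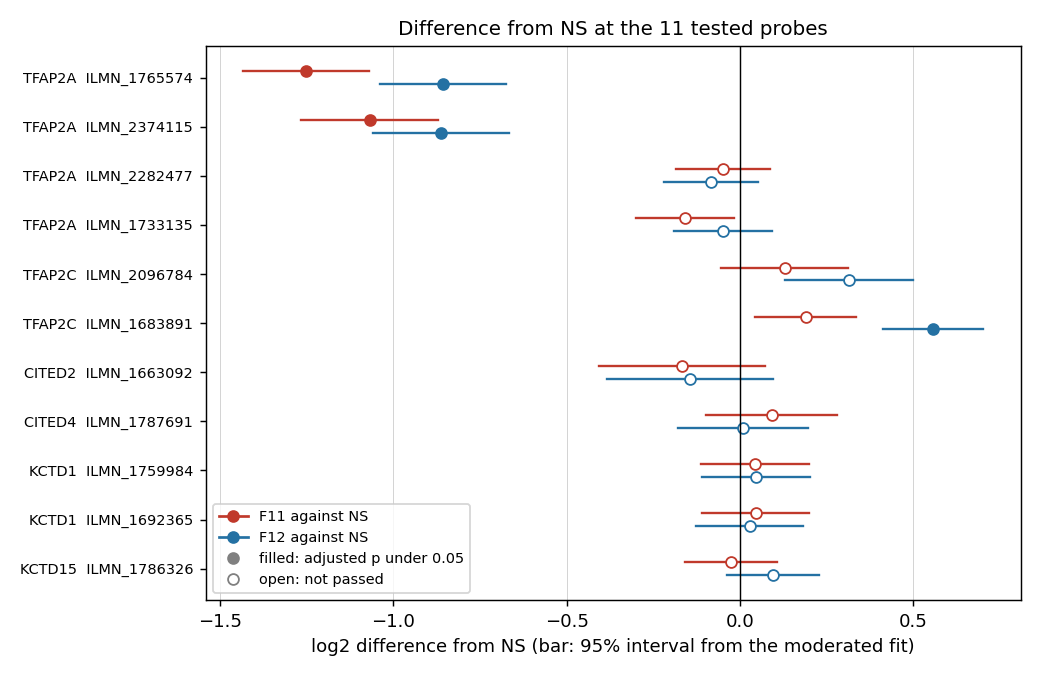
Log2 difference from NS (horizontal axis, bars are 95% intervals from the moderated fit) at the 11 tested probes for F11 and F12, with filled points at an adjusted p under 0.05. The filled points are TFAP2A probes ILMN_1765574 and ILMN_2374115 with both shRNAs, from -0.86 to -1.25, and TFAP2C probe ILMN_1683891 with F12 at 0.56.

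With F11, 2 of the 11 tested AP-2 probes were lower and 0 were higher, beside 1.35% and 1.23% of all 23011 tested probes. With F12, 2 were lower and 1 was higher, beside 0.404% and 0.222%. Averaged over both shRNAs, 2 were lower and 1 was higher, beside 0.335% and 0.13%. The median log2 difference of the 11 probes was -0.03 with F11 and 0.01 with F12, and that of all tested probes was 0.00 in each. The calls lay at TFAP2A and TFAP2C. In the averaged comparison the 4 SHMT1 shRNA arrays were all lower than both NS arrays at 4 of the 11 probes and all higher at 2, beside 6.94% and 7.92% of all tested probes. Counted from the lowest log2 difference of the 23011 probes, ILMN_1765574 ranked 4 with F11 and 17 with F12, and ILMN_2374115 ranked 9 and 14. In the averaged comparison they ranked 1 (log2 difference -1.05, adjusted p = 0.00236) and 3 (-0.97, adjusted p = 0.00442). The first did not pass without NS replicate 2 (adjusted p = 0.0678) and the second without NS replicate 1 (0.0987) or NS replicate 2 (0.0788). The averaged TFAP2C difference at ILMN_1683891 was 0.37 (adjusted p = 0.0411) and did not pass without either NS array (adjusted p = 0.311 without replicate 1 and 0.340 without replicate 2) or either F12 array (0.218 and 0.240). TFAP2C also narrowly missed with a filter on all 6 arrays (0.0509). With the 4 SHMT1 shRNA arrays treated as 1 group, ILMN_1765574 (adjusted p = 0.122) and ILMN_1683891 (0.823) did not pass and ILMN_2374115 did (0.0480). The comparisons of F11 and F12 with NS share the NS arrays.

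**Figure D3:**
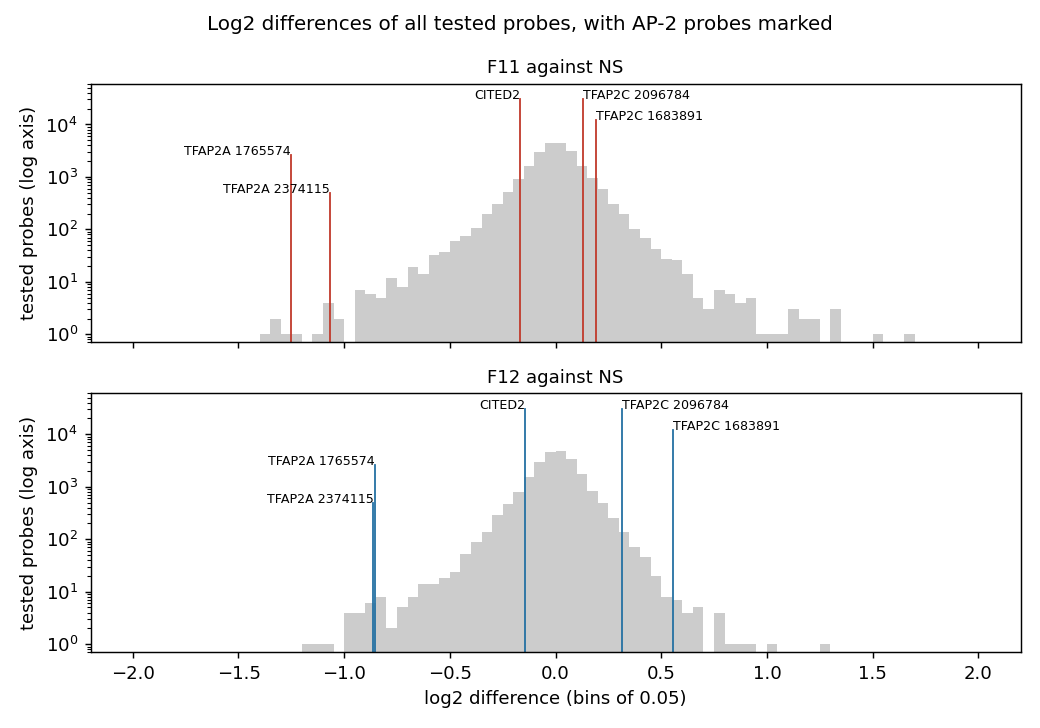
Number of tested probes (vertical log axis) by log2 difference from NS (horizontal axis, bins of 0.05) for F11 above and F12 below, with lines at TFAP2A, TFAP2C and CITED2 probes. The lines of TFAP2A ILMN_1765574 and ILMN_2374115 stand in the left tail, at -1.25 and -1.07 with F11 and at -0.86 with F12.

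Between the SHMT1 shRNAs, 2 of the 11 probes were higher with F12 than with F11 and 0 were lower, beside 2.79% and 3.06% of all tested probes. TFAP2A probe ILMN_1765574 differed by 0.40 (interval 0.21 to 0.58, adjusted p = 0.0309 by limma), a 1.32-fold higher intensity with F12, whereas ILMN_2374115 differed by 0.21 (interval 0.01 to 0.40, adjusted p = 0.226). TFAP2C probe ILMN_1683891 differed by 0.37 (interval 0.22 to 0.51, adjusted p = 0.0186) and ILMN_2096784 by 0.19 (interval 0.00 to 0.37, adjusted p = 0.244). The TFAP2A difference passed without F11 replicate 2 and in no other fit that left out an array (0.0568 without NS replicate 1 or 2, 0.0825 without F11 replicate 1, 0.213 without F12 replicate 1 and 0.110 without F12 replicate 2), nor with a normexp background correction (0.0589) or with F11 and F12 fitted alone (0.0568). The TFAP2C difference did not pass without F11 replicate 1 (0.0537), F12 replicate 1 (0.129) or F12 replicate 2 (0.156). SHMT1 itself stood higher with F12, by 0.47 over F11 on the log2 scale (adjusted p = 0.0197, and 0.141 or 0.157 without F12 replicate 1 or 2). Whether the extent of SHMT1 knockdown bears on the TFAP2A difference was not tested.

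The balance between the AP-2 paralogs was read as the log2 intensity of the brightest TFAP2A probe minus that of the brightest TFAP2C probe within each array. It was 1.90 and 2.16 with NS, 0.58 and 0.72 with F11, and 1.00 and 0.73 with F12. Both NS arrays stood above all 4 SHMT1 shRNA arrays, and the F11 and F12 values met at 0.72 and 0.73. Only its change is read, because the probes differ in brightness. The mean fell by 1.38 with F11 and by 1.17 with F12 on the log2 scale, which is 2.60-fold and 2.25-fold. Over both shRNAs the change was -1.28 (exact permutation test over the 15 splits of the arrays, two-sided, p = 0.0667, the smallest this design allows). With the second bright TFAP2A probe, the second TFAP2C probe or both, it was -1.19, -1.43 and -1.34. With the TFAP2A probes near background it was -0.29 to -0.48, and each pair with ILMN_2282477 gave p = 0.133 (exact permutation, two-sided). The change of the brightest pair mostly restates the fall of TFAP2A. Averaged log2 differences were -1.05 at ILMN_1765574 and 0.22 at ILMN_2096784, which did not pass (adjusted p = 0.311 by limma).

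**Figure D4:**
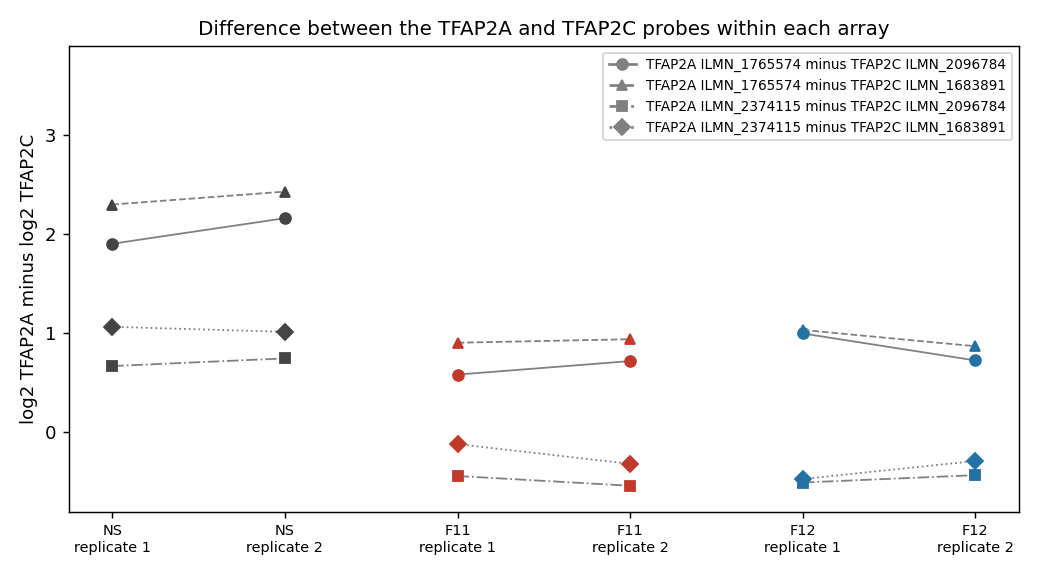
Difference between log2 intensities of a TFAP2A and a TFAP2C probe (vertical axis) within each of the 6 arrays, for the 4 pairs of the brighter TFAP2A probes with the TFAP2C probes. For each pair both NS arrays stand above the 4 SHMT1 shRNA arrays, from 1.90 and 2.16 down to between 0.58 and 1.00 for ILMN_1765574 and ILMN_2096784.

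TFAP2A was also set against its coactivators within arrays. These differences mostly restate its own fall, because CITED2 and CITED4 moved little (averaged log2 differences of -0.15 and 0.05). The brightest TFAP2A probe minus CITED2 was -0.68 and -0.59 with NS, -1.96 and -1.48 with F11, and -1.26 and -1.44 with F12, a mean change of -0.90. Against CITED4 it was 0.34 and 0.65 with NS, -0.95 and -0.75 with F11, and -0.29 and -0.45 with F12, a change of -1.10. NS and SHMT1 shRNA arrays did not overlap in either, with the smallest p the design allows (exact permutation, two-sided, p = 0.0667 each). For the brightest TFAP2C probe, which did not pass by itself, the change was 0.38 against CITED2 (p = 0.0667, exact permutation) and 0.17 against CITED4 (p = 0.2, exact permutation). Against KCTD15 the change was -1.09 for TFAP2A and 0.19 for TFAP2C (p = 0.0667 each, exact permutation). These pairs share probes and are not independent of each other.

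The genes whose pattern was most like TFAP2A were taken by Pearson correlation over the 6 arrays with ILMN_1765574, among 475 genes with a log2 range of at least 50% of its range of 1.37. They were LEMD1, a LEM-domain cancer-testis gene (0.997), MT1M, a metallothionein (0.994), IL6, the inflammatory cytokine (0.990), SST, which encodes somatostatin (0.987), and BDNF, a neurotrophin (0.986). LEMD1 read 207 and 211 with NS, 131 and 134 with F11, and 152 and 146 with F12. SST read 252 and 239, 135 and 132, and 172 and 155 in the same order. Each has the order of group means NS, F12, F11 that TFAP2A showed, which largely follows from how these genes were picked. Their log2 differences with F11 were from -0.62 to -0.88, and each passed by limma. With F12, LEMD1, MT1M and SST passed, whereas IL6 (-0.40, adjusted p = 0.0507) and BDNF (-0.42, adjusted p = 0.0678) did not. The opposite pattern was led by GFRA2, a receptor of the GDNF family (-0.984), RASD1, a Ras-related GTPase (-0.969), and PYCR1, an enzyme of proline synthesis (-0.926). GFRA2 read 293 and 286 with NS, 912 and 966 with F11, and 594 and 575 with F12. With F12, GFRA2 and RASD1 passed by limma and PYCR1 did not (0.34, adjusted p = 0.161). The 6 arrays share 3 groups, so the correlations are descriptions and are given with no p.

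The wider AP-2 network was described by lists of known partners and of targets described in other cells. Of 13 partner genes with a probe, 11 were tested. With F11, 0 were lower and 0 were higher, beside 1.88% and 1.91% of 12868 tested genes. With F12 both counts were again 0, beside 0.56% and 0.35%. At an unadjusted p under 0.05 by limma, 3 partner genes passed with F11, 0 with F12 and 5 between F12 and F11. Such p-values were common. Among the 23011 tested probes a limma p of 0.0501 ranked 3526 with F11. With F12 a p of 0.0505 ranked 2600, and between F12 and F11 a p of 0.0490 ranked 4577. The share of all tested genes at this threshold was not computed. The median log2 difference of the partner genes at the brightest probe was -0.01 with F11 and 0.00 with F12, and over all tested genes it was 0.01 and 0.00. Between the shRNAs 1 gene was lower with F12 and 0 were higher, beside 4.35% and 3.83%. It was MYC, a transcription factor that AP-2α binds, which read 2236 and 2606 with NS, 3116 and 3095 with F11, and 2298 and 2160 with F12 at its brighter probe. Both F11 arrays stood above the other 4. The F12 against F11 difference was -0.48 (adjusted p = 0.0194) and -0.75 at the second probe (adjusted p = 0.0444), and neither passed without F12 replicate 1 (0.112 and 0.271) or F12 replicate 2 (0.166 and 0.140), nor the second without F11 replicate 1 (0.1). Of partners that did not pass, PARP1, a poly(ADP-ribose) polymerase, had a difference of -0.42 between F12 and F11 (adjusted p = 0.0523). HIF1A, the hypoxia factor that competes with CITED2 for p300, had -0.19 with F11 (adjusted p = 0.186) at its brightest probe and -0.24 (adjusted p = 0.0927) at its dimmest.

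Of 24 target genes, all had a probe and 20 were tested. With F11, 1 was lower and 0 were higher, beside 1.88% and 1.91% of all tested genes, and with F12 the counts were again 1 and 0, beside 0.56% and 0.35%. At an unadjusted p under 0.05, 7 target genes passed with F11 and 4 with F12. The ranks by p given with the partner genes, 3526 with F11 and 2600 with F12 among 23011 probes, show how common such p-values were. In the averaged comparison 0 targets were lower and 0 were higher, beside 0.451% and 0.225% of all tested genes. There 5 target genes had an unadjusted p under 0.05 by limma, where a p of 0.0526 ranked 2441 of 23011 tested probes. The median log2 difference of the target genes was -0.02 with F11 and 0.05 with F12, beside 0.01 and 0.00 over all tested genes. MT2A, a metallothionein whose promoter is shown above, read 11750 and 11108 with NS, 7703 and 7724 with F11, and 11225 and 9999 with F12. The F11 arrays stood below the other 4, whereas F12 replicate 1 lay within the NS range. The log2 difference was -0.57 with F11 (adjusted p = 0.0103, and 0.0903 or 0.0658 without NS replicate 1 or 2), -0.11 with F12 (adjusted p = 0.639) and 0.46 between F12 and F11 (adjusted p = 0.0143, and 0.115 without F12 replicate 1).

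SOD2, mitochondrial superoxide dismutase, read 880 and 861 with NS, 961 and 1047 with F11, and 539 and 459 with F12 at its brightest probe. The F12 arrays were the lowest and the F11 arrays the highest. The log2 difference with F12 was -0.81 (adjusted p = 0.0138) and -0.63 at the second probe (adjusted p = 0.0385). With F11 it was 0.20 and 0.07 (adjusted p = 0.327 and 0.809). Neither F12 call passed without NS replicate 1 (0.143 and 0.293 at the probes in this order) or NS replicate 2 (0.127 and 0.215). The same held without F12 replicate 1 (0.113 and 0.306) and F12 replicate 2 (0.150 and 0.369). Between the shRNAs SOD2 differed by -1.01 (adjusted p = 0.00134) and -0.70 (adjusted p = 0.00659, and 0.0641 or 0.0851 without F12 replicate 1 or 2).

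At an adjusted p under 0.05, 2 targets were higher with F12 than with F11 (MT2A and CDH1) and 2 were lower (SOD2 and EGFR). By the same threshold 3.83% and 4.35% of all tested genes were higher and lower. Before adjustment, 12 of the 20 targets had a limma p under 0.05. Such values were common in this comparison, where a p of 0.0490 ranked 4577 of 23011 tested probes. The share of all tested genes before adjustment was not computed, so the 12 cannot be set against it. EGFR, the epidermal growth factor receptor, read 217 and 227 with NS, 268 and 259 with F11, and 168 and 175 with F12, so that the NS arrays stood between the SHMT1 shRNAs. Its F12 against F11 difference was -0.62 (adjusted p = 0.00192), and it passed without each array in turn. The second tested EGFR probe, ILMN_1696521, read 98.5 to 107 and gave -0.04 between F12 and F11 (adjusted p = 0.799). Against NS, the first probe of EGFR gave 0.25 for F11 and -0.37 for F12 (adjusted p = 0.0887 and 0.0507). CDH1, which encodes E-cadherin, read 1197 and 1331 with NS, 1185 and 1292 with F11, and 1597 and 1569 with F12. Its F12 against F11 difference was 0.36 (adjusted p = 0.0382) and did not pass without F11 replicate 1 (0.106), F12 replicate 1 (0.224) or F12 replicate 2 (0.203). Of targets that did not pass, TGFA, a ligand of EGFR, had -0.32 with F12 (adjusted p = 0.178), and IGFBP5, an IGF-binding protein, had 0.22 with F11 (adjusted p = 0.111). The IGFBP5 probe was near background, at 91.9 and 87.4 with NS and 105 and 104 with F11. Most members of both lists did not pass, and the target lower with F11, MT2A, was not the one lower with F12, SOD2.

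**Figure D5:**
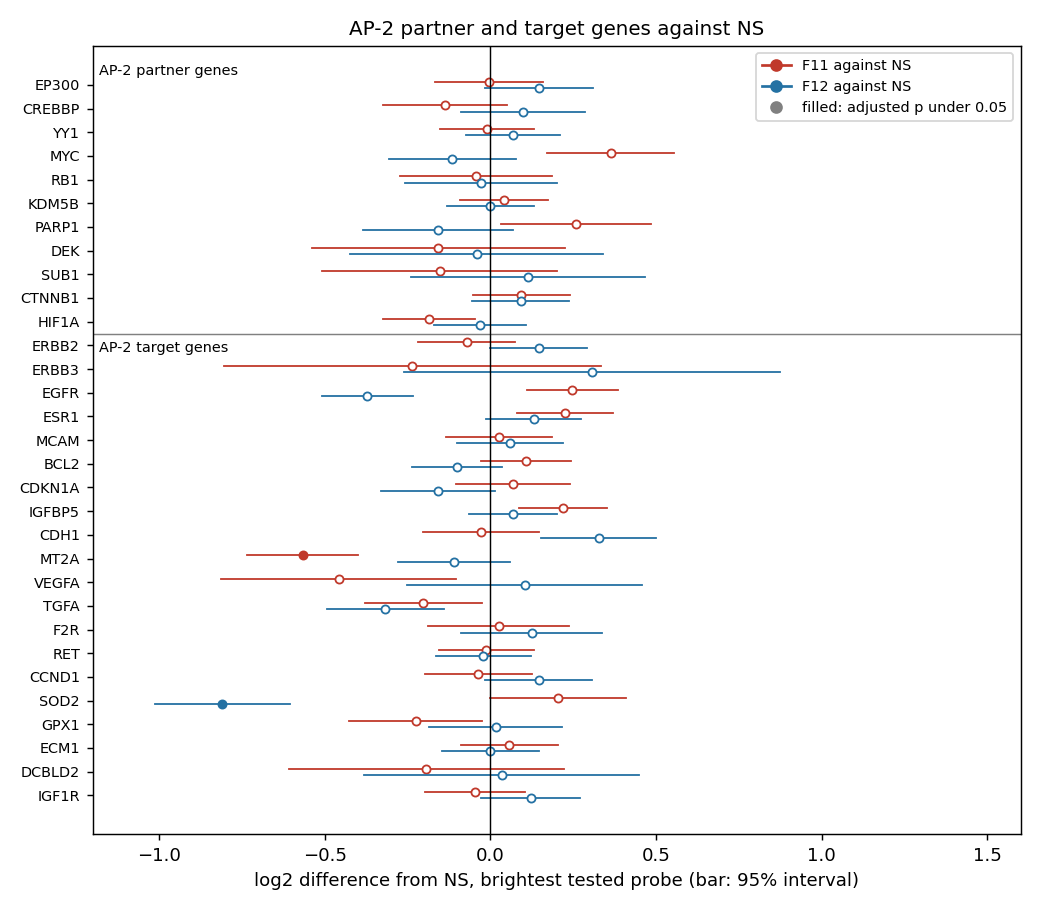
Log2 difference from NS (horizontal axis, bars are 95% intervals) at the brightest tested probe of 11 AP-2 partner genes and 20 target genes, with F11 and F12 in separate colors and filled points at an adjusted p under 0.05. The filled points are MT2A with F11 at -0.57 and SOD2 with F12 at -0.81.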

How the data were processed

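Total RNA of PEO4 cells was hybridized to Illumina HumanHT-12 V4.0 arrays, 2 each for NS, F11 and F12 as the labels give them. GenomeStudio served for the scans and lumi, for which the submitters' processing notes give no version, for quantile normalization. The authors deposited the result as linear intensity values. Of background subtraction the sources used here say nothing. Another table, of non-normalized signals, has 12 per-sample columns that match no label and was not used.

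Intensities were log2-transformed. The background mode was 85.5 and its 95th percentile 91.6, and the 23011 probes above it on at least 2 arrays were tested, a filter that used all arrays regardless of group. Probes were named from the platform annotation (30112 of 47321 with 1 symbol, 8 with several and 17201 with none). Groups were compared by lmFit and eBayes of limma (version 3.58.1, R 4.3.3), as in the methods of the study (3 groups sharing the spread, 3 residual degrees of freedom), two-sided, with Benjamini-Hochberg adjustment over all tested probes. A gene in a list was called if any of its probes passed, and its level and difference are those of its brightest probe. The calculation of the fit was checked on simulated arrays with independent normal noise and equal shifts with F11 and F12. This does not show how well its assumptions hold for these arrays. Precision is limited by the number of arrays.

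The members, the partner and target lists and the marker lists were chosen with earlier results of these data known. Named genes were all members, TFAP2D, CITED1 and SHMT1, the 5 genes most like TFAP2A and the 3 most opposite, and from each list every gene called in a comparison plus the 2 others of lowest p. MYC, MT2A, CDH1, EGFR and SOD2 entered by the first of these. Alternatives were normexp with an offset of 16, cyclic loess, no filter, a filter on all 6 arrays, the replicate number as a block, an intensity trend with robust estimation, only the compared groups, the 4 SHMT1 shRNA arrays as 1 group, other probe pairs, Spearman correlation and each array left out. A pattern search with no limit on range was added after seeing the data.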

Additional observations from a re-analysis of the deposited data

Results flagged for a closer look

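The results below were singled out because the test between the SHMT1 shRNAs (F12 against F11, limma) passed at the probe named. By this test the differences of F11 and F12 from NS were themselves different at that probe. TFAP2A probe ILMN_1765574 differed by 0.40 on the log2 scale and TFAP2C probe ILMN_1683891 by 0.37, both higher with F12. MYC differed by -0.48 and -0.75 at its 2 probes, lower with F12. Among AP-2 targets, MT2A (0.46) and CDH1 (0.36) were higher with F12, and EGFR (-0.62) and SOD2 (-1.01 and -0.70) were lower. At TFAP2A probe ILMN_1765574 both shRNAs lay below NS with different sizes, but this call did not pass with normexp (adjusted p = 0.0589). The second bright TFAP2A probe did not pass (0.21, adjusted p = 0.226). Nor did the second probes of TFAP2C (0.19, adjusted p = 0.244) and EGFR (-0.04, adjusted p = 0.799). At the first EGFR probe the mean intensity was 263 with F11 and 172 with F12, on opposite sides of 222 with NS. No group had enough arrays for a test of single outlying arrays.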

How the results depend on the processing

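The 10 AP-2 probe differences that passed kept their sign in all 130 alternative values and passed in 96 of them, and in 63 of the 70 that left out no array. The TFAP2A differences with F11 passed in each alternative at both bright probes. The 34 AP-2 probe differences that did not pass gave 0 calls in 430 alternative values, and 13 changed sign. Only compared groups could not be applied to the averaged comparison, and a slide block was not run because the table used names no slide.

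The 2 calls between F12 and F11 became 1 with normexp, with only the compared groups and with the replicate block, and the 3 averaged calls became 1 with the 4 SHMT1 shRNA arrays as 1 group, where the spread between F11 and F12 enters the error. Differences between F12 and F11 that did not pass were MT2A (adjusted p = 0.051) and CDH1 (0.113) with normexp, CDH1 with the intensity trend (0.051) and the second MYC probe without the filter (0.0546). Leaving out 1 array gave 2 to 2 calls with F11, 0 to 3 with F12, 0 to 2 between the shRNAs and 0 to 3 averaged. Over all tested probes the F12 fit called 144, against 14 and 0 without NS replicate 1 or 2, and 0 and 1 without F12 replicate 1 or 2. Target calls became 2 with normexp for F11 and 2 without the filter for F12. The target gained with normexp was IGFBP5 (0.59, adjusted p = 0.0287), whose probe was near background. Without 1 array, partner calls between the shRNAs ranged from 0 to 2, and target calls from 0 to 2 with F11, 0 to 2 with F12 and 2 to 6 between the shRNAs. The paralog balance was -1.48 with normexp, -0.29, -0.44, -0.33 and -0.48 with the TFAP2A probes near background, and -1.15 to -1.40 without 1 array. The lowest likeness of the 5 genes was 0.886 by Spearman correlation, and 3 of the 5 were also chosen with no limit on range.

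The replicate numbers did not pair the arrays. Deviations from the group means of same-numbered arrays correlated at 0.455 (NS and F11), -0.291 (NS and F12) and -0.310 (F11 and F12). With the replicate block, F11 and F12 gave 2 and 3 AP-2 calls as before, and the averaged comparison gave 2, without TFAP2C (adjusted p = 0.0873). With the block, the second SOD2 probe for F12 (adjusted p = 0.0839), the second MYC probe (0.0591) and TFAP2A ILMN_1765574 (0.0542) between the shRNAs did not pass.

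Levels near the threshold of 91.6 limit what can be read at KCTD1, TFAP2B, TFAP2E, IGFBP5 and 3 TFAP2A probes.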
